A study of Homo sapiens with 9 samples.

Results

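RAB GTPases are the largest family of small GTP-binding proteins that direct traffic between membranes. The genes described here were all protein-coding genes of the count table whose symbol is RAB followed by a number, with at most 1 letter and 1 further digit after it. The rule found 62 of the 30956 genes in the table, of which 16232 were protein-coding, and it used no measured value. RAB interactors such as the RAB11FIP genes were outside it, and RAB17 was not analysed here.

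A RAB protein carries a lipid anchor and switches between a GDP-bound form, kept soluble by an escort protein (GDI), and a GTP-bound form that sits on a membrane and recruits effectors. Exchange factors turn a RAB on and GTPase activating proteins turn it off, and each RAB marks its own set of membranes, so the family is often read as a map of the secretory and endocytic routes. Many RABs exist as close paralogs that share a number and differ in a letter, which lets near-identical proteins be compared at the level of their mRNAs.

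The libraries came from HEK293T cells, a transformed human embryonic kidney line, kept in DMEM medium with fetal serum. RNA was immunoprecipitated (RIP) with V5-tagged CNOT7 that carries the D40A substitution, which impairs the nuclease. CNOT7 belongs to CCR4-NOT, the complex that removes poly(A) tails. There were 3 RIP libraries and 6 inputs, of which 3 came from cells exposed to doxycycline (3 µg/mL, 24 h) and 3 from cells without it. The labels do not say which cells the RIP came from, whether the tagged protein was the only CNOT7, or whether the line was 1 clone. No immunoprecipitate of untagged cells was analysed here, so binding to the antibody or beads was not subtracted.

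The RIP libraries held between 37140622 and 40764899 reads in genes. RIP replicate 2 had no read for 11 of the 62 RAB genes, against 4 in replicate 1 and 3 in replicate 3. Kidney-lineage genes PAX2 and LHX1 were read in every RIP library (1134 to 1355 and 409.1 to 437.4 normalized counts). So were VIM (9425 to 10934), KRT8 (137.1 to 228.5) and KRT18 (584.2 to 990.9). Markers of other cells were mixed. The liver gene ALB had 0 to 10.8 and the erythroid gene HBA1 0 to 0.83, but the fibroblast gene COL1A1 had 322.2 to 535. In bulk libraries like these, fewer cells with an RNA and less RNA per cell cannot be told apart. Normalized counts are reads divided by 1 factor per library. A fold is RIP over input on the log2 scale, and "rose" and "fell" mean recovered above or below input at an adjusted p (DESeq2 Wald test, Benjamini-Hochberg over all genes) under 0.05. Input columns could not be tied to 1 kind of input, so an input mean is given as derived from the RIP mean and the authors' fold, with no SD.

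RAB mRNAs were recovered on both sides of input, with more members above it than below. Of 59 tested members, 18 rose (30.5%) and 9 fell (15.3%) per the authors' deposited table, and 32 did not pass. Over all 20649 tested genes, 20.6% rose and 19.9% fell, and over tested protein-coding genes 26.4% rose and 26.1% fell. All 27 called members had a deposited mean (over all 9 libraries) of at least 100 normalized counts, a level that 44 of the 62 reached. RAB6D reached it (144.7) only through its RIP libraries, as its derived input was 83.1 and its mean over all 6 inputs 58.1. It is counted among the members that rose at that level and by at least 2-fold. At that level 40.9% of the RAB genes rose and 20.5% fell per the authors' deposited table, beside 31.8% and 31.9% of protein-coding genes. The median fold of the tested members was 0.24 on the log2 scale, beside -0.079 for all tested genes and -0.044 for tested protein-coding genes. Of the 59 tested members 4 rose and 1 fell by at least 2-fold per the authors' deposited table. Of 14382 tested protein-coding genes 1775 rose and 1658 fell that far, and of all tested genes 10.3% and 9.63%. With all 6 inputs as 1 group RAB33B (0.71) and RAB9A (0.82), which are among the 4, were below 2-fold. No test of the family as a whole was made.

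**Figure D1:**
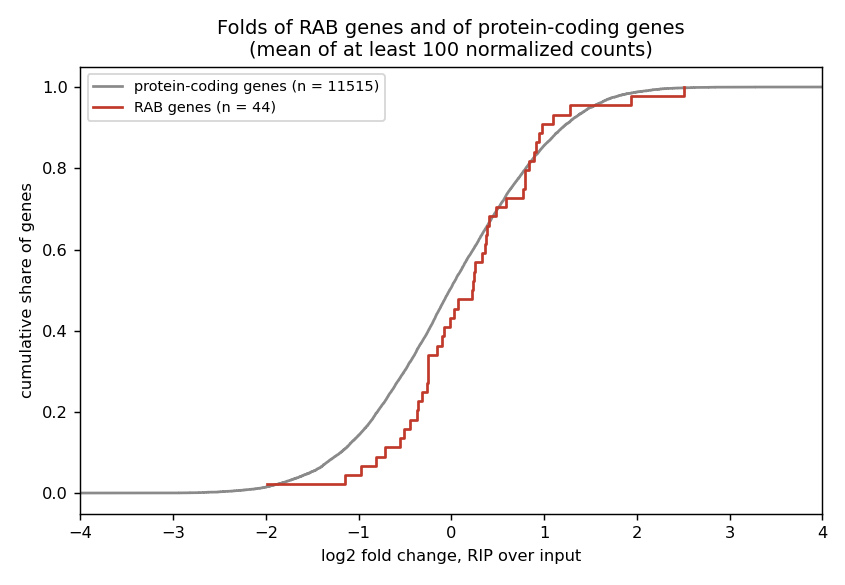
Cumulative share of genes (y axis) by log2 fold of RIP over input (x axis) for the 44 RAB genes and 11515 tested protein-coding genes with a mean of at least 100 normalized counts. Between folds of about -1.5 and 0.3 the RAB curve lies to the right of the other, and above that the curves cross.

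The balance depended on scaling. Scaling by total counts adds 0.50 to every log2 fold and to every median of a list given here, and then 27 RAB genes (45.8%) rose and 3 (5.08%) fell (RAB1B, RAB8A and RAB34), beside 42.9% and 12.7% of tested protein-coding genes. Leaving small and mitochondrially encoded RNA out of the totals adds 0.13, with 20 up and 7 down, beside 30.4% and 22% of protein-coding genes. Both add to every gene alike, so no gene that rose could lose its direction. Differences between 2 RAB genes are the same under every scaling.

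**Figure D2:**
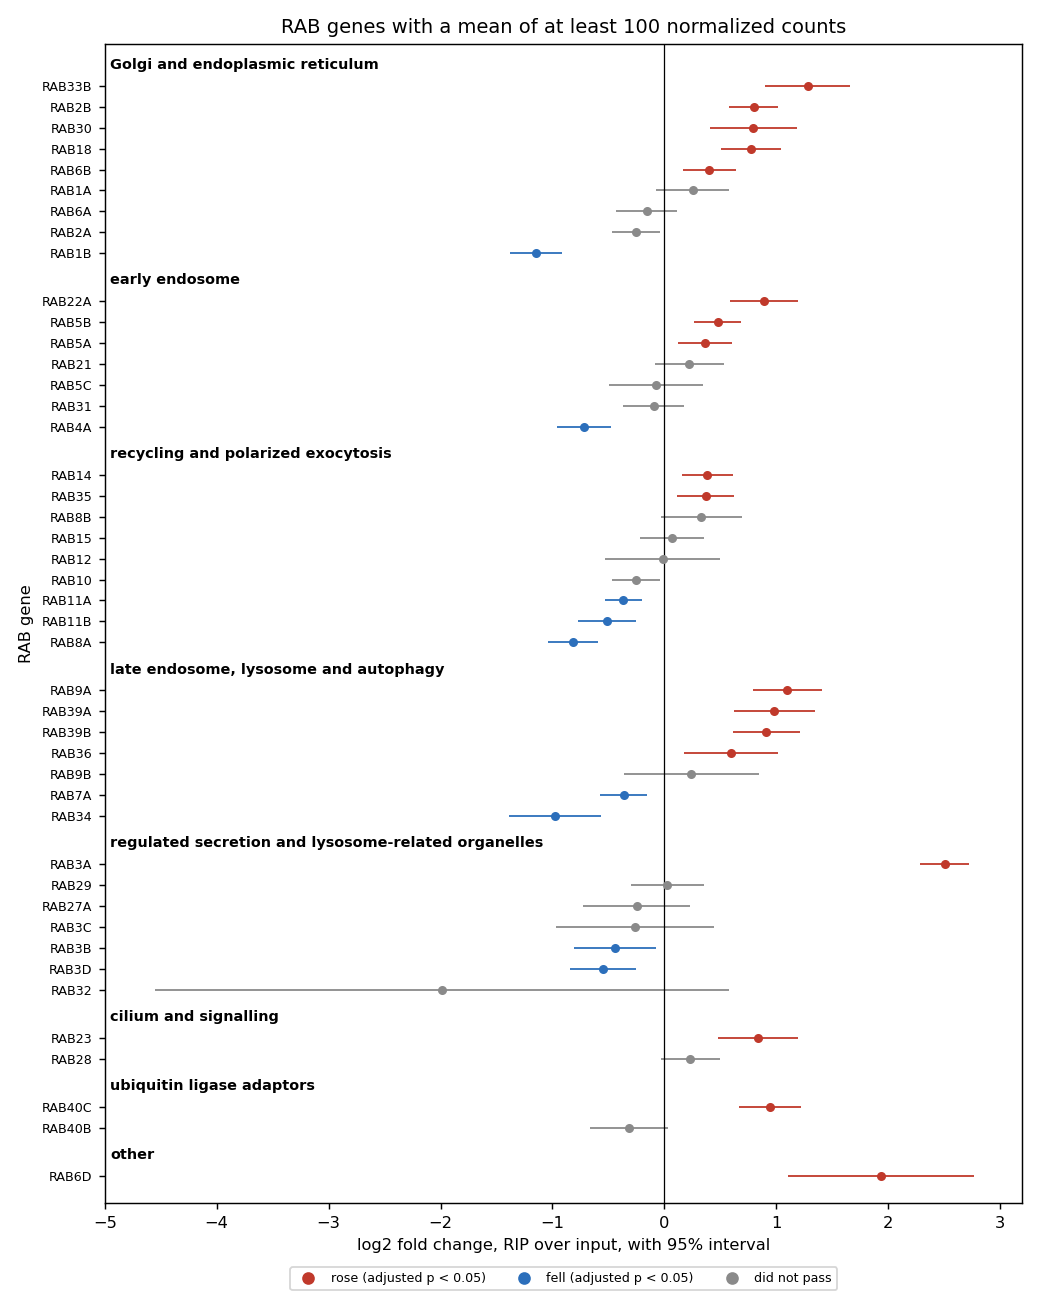
Log2 fold of RIP over input (x axis) with its 95% interval for the 44 RAB genes with a mean of at least 100 normalized counts, grouped by the membrane or process they serve and coloured by the call per the authors' deposited table. RAB3A lies highest at 2.50, RAB1B is the lowest called member at -1.15, and RAB32 at -1.99 has an interval that spans 0.

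RABs of the Golgi and the endoplasmic reticulum had more members above input than below it. Of 12 tested members 5 rose (41.7%) and 1 fell (8.33%) per the authors' deposited table, with a median log2 fold of 0.48. Under total-count scaling 7 rose and 1 fell. For this group and those below, 26.4% of tested protein-coding genes rose and 26.1% fell (42.9% and 12.7% under total-count scaling). Of all tested RAB genes 30.5% rose and 15.3% fell, and no group was tested against the rest. RAB33B, a Golgi RAB that binds the autophagy protein ATG16L1, lies on chromosome 4 (139438376 to 139476609, GRCh38.p14, as are all positions here). It had 2107, 1832 and 1683 normalized counts in RIP replicates 1 to 3, all above the derived input mean of 770.0. Its fold was 1.28 (SE 0.19, adjusted p = 2.95e-10) per the authors' deposited table, but 0.71 with all 6 inputs as 1 group. RAB33B-AS1, an antisense RNA that shares 2367 bases of its span, had a RIP mean of 114.8 and did not pass, and without the strand setting their reads cannot be told apart.

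RAB2B, RAB30 and RAB18 rose by similar amounts. RAB2B (chromosome 14, 21459020 to 21476959), which like RAB2A acts between the endoplasmic reticulum and the Golgi, had 2853, 3190 and 2951 normalized counts in RIP against a derived input of 1726. Its fold was 0.80 (SE 0.11, adjusted p = 7.37e-12) per the authors' deposited table, and every RIP library was above the derived input. RAB18, which is needed for endoplasmic reticulum shape and lipid droplets, and the Golgi protein RAB30 had 0.77 (SE 0.14) and 0.79 (SE 0.20) per the authors' deposited table. RAB6B, the neuronal form of the Golgi RAB RAB6, rose by 0.40 (SE 0.12) per the authors' deposited table. It shares 4340 bases of its span with SRPRB, which fell (-0.72).

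RAB1B was the only Golgi member that fell, and the lowest of all called RAB genes. RAB1A and RAB1B both control the step from the endoplasmic reticulum to the Golgi. RAB1B (chromosome 11, 66268639 to 66277492) had 1979, 2345 and 2107 normalized counts in the RIP libraries, all below the 4754 derived for input. The fold was -1.15 (SE 0.12, adjusted p = 1.48e-20) per the authors' deposited table. RAB1A (chromosome 2, 65086854 to 65130106) had 3907, 4299 and 3077 against 3158, so its libraries lay on both sides of input. RAB1A did not pass at 0.25 (SE 0.17, adjusted p = 0.243) per the authors' deposited table, but passed with all 6 inputs (0.47) and under total-count scaling (0.75). It shares 151 bases with CEP68, which rose (0.66).

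Among early endosome RABs, 3 of 8 tested members rose (37.5%) and 1 fell (12.5%) per the authors' deposited table (median 0.074). Under total-count scaling 5 rose and 0 fell. RAB22A (chromosome 20, 58309715 to 58367507), which works between early endosomes and the recycling route, had 4116, 4147 and 3466 normalized counts in RIP, all above the derived 2109. Its fold of 0.89 (SE 0.16, adjusted p = 6.92e-08) was the highest of this group per the authors' deposited table. RAB5A, RAB5B and RAB5C, the master regulators of early endosome fusion, had 0.36 (SE 0.12), 0.48 (SE 0.11) and -0.075 (SE 0.21) per the authors' deposited table. The first 2 passed and RAB5C did not, with RIP values from 1492 to 2674 around a derived input of 2103, and it turned to 0.42 under total-count scaling without passing.

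RAB4A, which returns cargo quickly from early endosomes to the surface, was the early endosome member that fell. RAB4A (chromosome 1, 229271111 to 229305894) had 1905, 2224 and 2073 normalized counts in RIP against a derived 3404. The fold was -0.72 (SE 0.12, adjusted p = 2.19e-08) per the authors' deposited table, and -0.22 without passing under total-count scaling. RAB4A-AS1 shares 44 bases with it and rose (0.62). The paralog RAB4B had a read in RIP replicate 3 only, too little to place it.

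Of 12 tested RABs of recycling and polarized exocytosis 2 rose (16.7%) and 3 fell (25%) per the authors' deposited table, with a median of 0.027. Under total-count scaling 4 of them rose and 1 fell. RAB8A (chromosome 19, 16111889 to 16134234), which carries vesicles to the plasma membrane and the primary cilium, had 2380, 2433 and 2654 normalized counts in RIP and 4385 in the derived input. All 3 libraries were below input, with a fold of -0.82 (SE 0.11, adjusted p = 7.18e-12) per the authors' deposited table. RAB11A and RAB11B, which mark recycling endosomes, fell by 0.37 (SE 0.084) and 0.51 (SE 0.13) per the authors' deposited table. RAB11A (chromosome 15, 65869491 to 65891989) had 6235, 6114 and 6118 against 7943, and RAB11B (chromosome 19, 8390360 to 8404434) had 1444, 1876 and 1706 against 2393. With all 6 inputs as 1 group RAB11A stood at -0.18 (adjusted p = 0.0308, Wald test with the limited SE described above). The derived mean of its remaining inputs was 6002, below all 3 RIP libraries. Under total-count scaling the pair stood at 0.13 and -0.019 and did not pass.

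RAB14 and RAB35 rose by small amounts, 0.38 (SE 0.12) and 0.37 (SE 0.13) per the authors' deposited table. RAB14, which acts between Golgi and endosomes, was not called without RIP replicate 1, and it shares 387 bases with GSN, which fell (-1.23). RAB35, a RAB of fast recycling, was not called without RIP replicate 3 or with all 6 inputs (0.18). RAB10, which brings glucose transporters to the surface of fat cells, was near the threshold at -0.26 (adjusted p = 0.0515) per the authors' deposited table and fell without RIP replicate 1, with all 6 inputs (-0.38) and among genes with a mean of at least 100, but turned to 0.24 under total-count scaling.

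RABs of late endosomes, lysosomes and autophagy held 4 members that rose (44.4%) and 2 that fell (22.2%) of 9 tested per the authors' deposited table (median 0.59). Under total-count scaling 5 rose and 1 fell. RAB9A (X chromosome, 13689128 to 13710504), which returns receptors from late endosomes to the Golgi, had 1962, 2323 and 2157 normalized counts in RIP against a derived 1003. Its fold was 1.10 (SE 0.16, adjusted p = 2.50e-11) per the authors' deposited table, but 0.82 with all 6 inputs as 1 group. RAB39A and RAB39B, linked to autophagy and in the case of RAB39B to neuronal disease, rose by nearly the same amount. RAB39A (chromosome 11, 107928448 to 107963482) had 1286, 1323 and 1192 against 642.2, and RAB39B (X chromosome, 155258235 to 155264491) had 1593, 1425 and 1471 against 795.1. Their folds were 0.98 (SE 0.18) and 0.91 (SE 0.15) per the authors' deposited table, and 0.84 and 0.65 with all 6 inputs as 1 group. RAB36 had 0.59 (SE 0.22, adjusted p = 0.0164) there and was not called without RIP replicate 2 or with all 6 inputs (0.33). It lies within the span of RSPH14, which had a RIP mean of 9.16 and did not pass.

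RAB7A and RAB34 fell. RAB7A (chromosome 3, 128726183 to 128814798), the RAB of late endosome and lysosome fusion, had 6888, 7417 and 7464 normalized counts in RIP against 9340 in the derived input. The fold of -0.36 (SE 0.11, adjusted p = 0.0022) per the authors' deposited table turned to 0.13 under total-count scaling. RAB34 (chromosome 17, 28714281 to 28718428), which places lysosomes and builds cilia, had 373.5, 521.6 and 472.7 against 897.1. Its fold was -0.98 (SE 0.21, adjusted p = 1.38e-05) per the authors' deposited table, and all 3 libraries were below input.

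The secretion group held RAB3A, the called member with the largest fold. Of 11 tested members 1 rose (9.09%) and 2 fell (18.2%) per the authors' deposited table, with a median of -0.25. Under total-count scaling 2 rose and 0 fell. RAB3A, which sits on synaptic vesicles and controls their release, lies on chromosome 19 (18196784 to 18204042). It had 6382, 6615 and 6637 normalized counts in RIP against a derived input of 1154. The RIP libraries differed by little from each other and all lay more than 5 times above input. The fold was 2.50 (SE 0.11, adjusted p = 3.85e-106) per the authors' deposited table, which is a ratio of 5.67. With all 6 inputs as 1 group it was 3.03, since the derived mean of the remaining inputs was 451.4. Its end overlaps MPV17L2 by 165 bases, and MPV17L2 had a RIP mean of 649.6 and did not pass (-0.33).

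The other RAB3 genes stood below input. RAB3D (chromosome 19, 11322068 to 11339657), found on granules of secretory cells, had 1580, 1420 and 1855 normalized counts in RIP against 2367. RAB3B (chromosome 1, 51907956 to 51990700) had 1177, 810.0 and 1029 against 1367. Their folds were -0.55 (SE 0.15, adjusted p = 0.000985) and -0.44 (SE 0.19, adjusted p = 0.0447) per the authors' deposited table. Under total-count scaling RAB3D had -0.053 and RAB3B turned to 0.052, and neither passed. RAB3B also lost its call when RIP replicate 2 or 3 was left out, and RAB3D and RAB3B did so with all 6 inputs (-0.24 and -0.21). RAB3C, with 140.3 to 192.9 in RIP, did not pass at -0.26 (SE 0.36) per the authors' deposited table, and had 0.031 with all 6 inputs and 0.23 under total-count scaling. RAB27A, which tethers melanosomes and lytic granules, and RAB29, a partner of the kinase LRRK2, had -0.25 (SE 0.24) and 0.028 (SE 0.16) per the authors' deposited table. Under total-count scaling RAB27A turned to 0.25 and RAB29 rose (0.52).

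**Figure D3:**
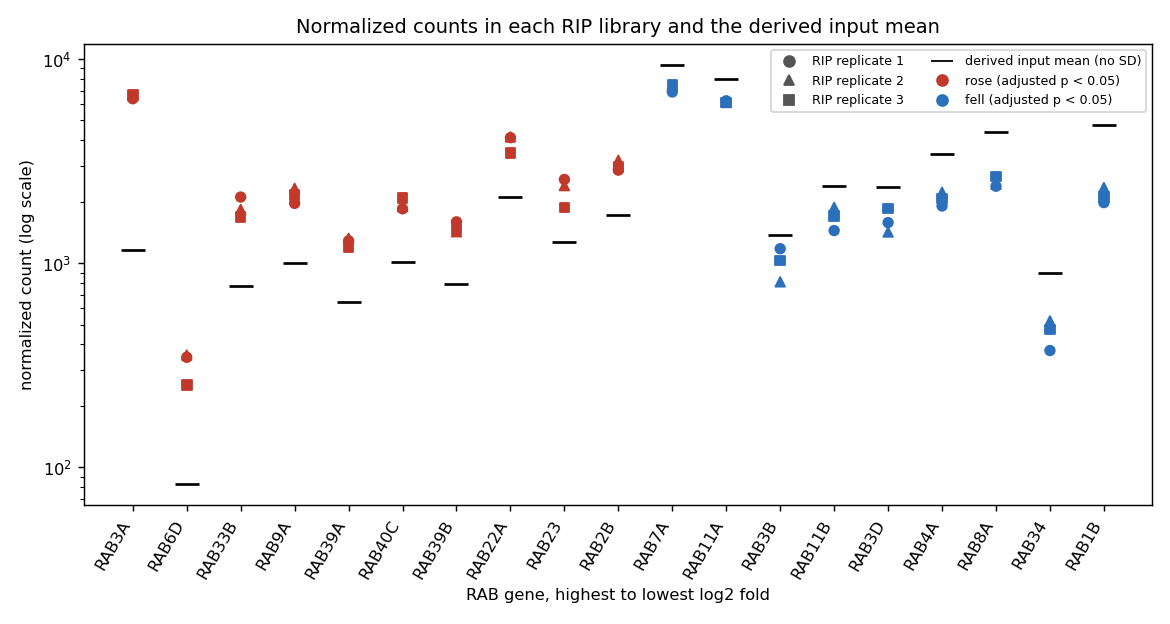
Normalized counts (log scale) in each of the 3 RIP libraries (points) and the derived input mean (bar) for the 10 RAB genes with the largest rise and the 9 that fell. RAB3A has 6382 to 6637 in RIP against 1154, and every point of a coloured gene lies on the called side of its bar.

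Outside these routes, RAB23 and RAB40C rose. RAB23, which restrains Hedgehog signalling at the cilium, had 2569, 2396 and 1870 normalized counts in RIP against 1273. Its fold was 0.84 (SE 0.18, adjusted p = 1.85e-05) per the authors' deposited table. It overlaps BAG2, which rose (0.68), and PRIM2, which fell (-0.52), by 2842 and 768 bases. RAB40C (chromosome 16, 589357 to 629268), which has a SOCS box that binds a cullin ubiquitin ligase, had 1845, 1893 and 2088 against 1010. Its fold was 0.94 (SE 0.14, adjusted p = 3.24e-10) per the authors' deposited table, while RAB40B, at -0.32 (SE 0.18), did not pass. RAB28, another ciliary RAB, did not pass at 0.23 (SE 0.13) per the authors' deposited table, but rose under both total-count scalings.

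RAB6D, a RAB6A-like gene on chromosome 2 (131360492 to 131364168), was the second highest called member. It had 346.1, 354.7 and 253.2 normalized counts in RIP against a derived 83.1. The fold was 1.94 (SE 0.43, adjusted p = 2.51e-05) per the authors' deposited table. RAB6A itself (chromosome 11, 73675638 to 73761074) had 4785, 3460 and 4086 against 4589 and did not pass at -0.16 (SE 0.14) per the authors' deposited table. Under total-count scaling RAB6A turned to 0.34 and passed. RAB6C, another RAB6A-like gene, had 8.94 to 62.9 in RIP and did not pass. The windows around the annotated starts of RAB6A (chr11:73761025-73761324, minus strand), RAB6C (chr2:129979416-129979715, plus strand) and RAB6D (chr2:131364119-131364418, minus strand) share an identical stretch of 45 bases, and those of RAB6C and RAB6D one of 55. The 45-base stretch begins 14 bases before the annotated start in RAB6A and RAB6C and 2 before it in RAB6D, and it is shorter than a read. It describes the likeness of the copies and does not by itself show that reads were assigned to the wrong gene. The first 30 of the 45 bases are shown:

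RAB6A, RAB6C and RAB6D: ccagaggctcgcgcactcagcaggttgggc

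Reads of close copies can be assigned to the wrong gene, which was not tested here, so the values of RAB6D and RAB6C are uncertain. The sources used here do not give the authors' handling of reads that map to several copies. Processed pseudogenes of other RABs held few reads. RAB1C, RAB1AP1, RAB5CP2 and RAB43P1 had at most 7.45 normalized counts in any RIP library.

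Paralogs with the same number differed in recovery in some families and not detectably in others. Of 28 pairs with both members tested, in 14 families, 12 differed with a 95% interval above 0, and 9 still did when the interval was widened for 28 pairs. All 12 were among the 19 pairs in which both genes had a mean of at least 100 normalized counts, and the median difference in those 19 was 0.86 on the log2 scale. For all 946 pairs among the 44 RAB genes at that level the median was 0.71. The intervals take the SEs of the 2 genes as independent. Pairs that share a gene are not separate observations, and RAB3A and RAB6D each stand in several of the 9. RAB6D reached the floor of 100 only through its RIP libraries, and its values are uncertain. No intervals were made for the 946 pairs, so the counts of 12 and 9 have no such comparison.

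Among pairs with both means at least 100, the 3 widest differences were in the RAB3 family. The fold of RAB3A lay above that of RAB3D by 3.05 (95% interval 2.68 to 3.42), of RAB3B by 2.95 (2.52 to 3.38) and of RAB3C by 2.77 (2.03 to 3.50). The count ratio of RAB3A to RAB3D was 4.04, 4.66 and 3.58 in the RIP libraries and 0.487 in the derived input. Between RAB3B, RAB3C and RAB3D no difference passed, the widest being 0.29 (-0.48 to 1.05), an interval that allows a difference of up to 1.05. RAB3A with RAB3D and with RAB3B were the 2 pairs in which one gene rose and the other fell.

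In RAB1, RAB2 and RAB8 one member had a positive and one a negative log2 fold under the deposited scaling, as did RAB40C and RAB40B, though RAB1A, RAB8B, RAB2A and RAB40B did not pass on their own. RAB40A, with at most 70.8 normalized counts in RIP, did not pass at 1.13 (SE 0.75) per the authors' deposited table. RAB1A lay above RAB1B by 1.40 (SE 0.20), as their ratio went from 0.664 in the derived input to 1.97, 1.83 and 1.46 in RIP. RAB40C lay above RAB40B by 1.26 (0.81 to 1.71). RAB8B lay above RAB8A by 1.15 (0.72 to 1.57), with RAB8B at 1667, 1621 and 1220 normalized counts in RIP against 1194. RAB8B rose with all 6 inputs (0.69) and under both total-count scalings (0.83 and 0.46). RAB2B lay above RAB2A by 1.05 (0.74 to 1.35), and their ratio was 0.859, 0.861 and 0.891 in RIP against 0.421. RAB2A did not pass at -0.25 (adjusted p = 0.0550) per the authors' deposited table, and turned to 0.24 under total-count scaling, while it fell without RIP replicate 2 and among genes with a mean of at least 100 and stood at -0.050 with all 6 inputs. RAB6D lay above RAB6A by 2.10 (1.22 to 2.97) and above RAB6B by 1.53 (0.67 to 2.40), the latter no longer beyond the widened interval without RIP replicate 1 or 2.

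**Figure D4:**
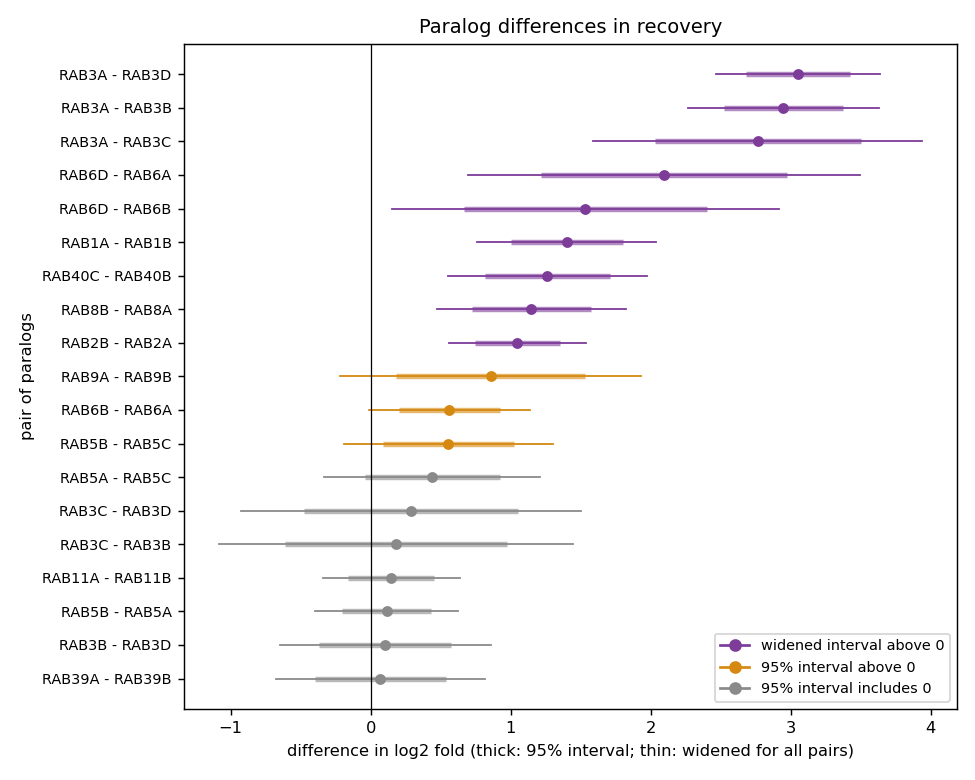
Difference in log2 fold (x axis) between paralogs of the same number, for the 19 pairs with both genes at a mean of at least 100 normalized counts, with the 95% interval (thick) and the interval widened for 28 pairs (thin). The 3 pairs with RAB3A lie farthest right, between 2.77 and 3.05, and RAB39A and RAB39B differ by 0.068.

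In other families no difference was detectable. RAB39A and RAB39B differed by 0.068 (-0.40 to 0.54), RAB5B and RAB5A by 0.11 (-0.21 to 0.43) and RAB11A and RAB11B by 0.15 (-0.16 to 0.45), intervals that allow differences of up to 0.54 on the log2 scale. RAB9A with RAB9B (0.86), RAB6B with RAB6A (0.56) and RAB5B with RAB5C (0.55) differed by the 95% interval but not by the widened one.

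Of the 32 members that did not pass, 17 had a mean of at least 100 and 15 did not. None of the 15 tested RAB genes with a mean below 100 passed, beside 27 of 44 above it. RAB25, RAB7B, RAB33A and RAB4B had at most 13.3 normalized counts in any RIP library, and their folds from -2.95 to 4.83 carry SEs of 2.83 or more. RAB41 and RAB42 had no read in any RIP library and RAB44 had 1.57 normalized counts in 1 library, and these 3 were not tested. RAB13, RAB24, RAB27B, RAB32, RAB7B and RAB25 were read in RIP replicates 1 and 3 but not in replicate 2. RAB19, RAB20, RAB26, RAB37, RAB38, RAB40A and RAB43 had up to 214.6 normalized counts in a RIP library and did not pass. RAB12, RAB15, RAB21 and RAB31 had RIP means from 734.3 to 3115 and folds between -0.095 and 0.22 per the authors' deposited table, none of which passed. Under total-count scaling RAB15 (0.57), RAB21 (0.72) and RAB31 (0.40) rose, while RAB12 turned to 0.48 without passing.

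A pyrimidine tract at the start of the transcript was searched because mRNAs that begin with one, called 5' terminal oligopyrimidine mRNAs, are a class long known for its own control of translation. The search asked for a C at the annotated start followed by at least 4 bases that are each C or T, on the strand of the gene. Of 49 RAB genes with a start window in the RefSeq table, 3 had such a start, in 4 of 70 windows, beside 4.07% of all 35116 windows. The first 20 bases from the start are shown 5' to 3' with the tract in capitals, each with its RefSeq window of 250 bases before and 50 after the start (GRCh38.p14), followed for comparison by 3 strongly changed members without it:

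RAB4A (window chr1:229270861-229271160, plus strand): CTCTTCCTCCTCgcggtcgc

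RAB13, one start (window chr1:153986290-153986589, minus strand): CTTCCTggcctgggctccgt

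RAB13, another start (window chr1:153985344-153985643, minus strand): CTCTTCTTTCTTCatctcct

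RAB3D (window chr19:11339608-11339907, minus strand): CTTCTgggcggagcccgcgc

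RAB3A (window chr19:18203993-18204292, minus strand): gcaggacgtcacggaggact

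RAB1B (window chr11:66268389-66268688, plus strand): agagtcgactgggagcgacc

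RAB8A (window chr19:16111639-16111938, plus strand): gagagagtgtaatatggcga

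For the RAB genes with a tract the folds were -0.72 (RAB4A), -0.55 (RAB3D) and -1.36 (RAB13) per the authors' deposited table. RAB13 did not pass, and had a mean of 47.8 normalized counts with 0 to 36.1 in RIP. Of 59 tested RAB genes 22 had folds below -0.079, the median of all tested genes. Under total-count scaling RAB4A stood at -0.22 and RAB3D at -0.053, and neither passed. RAB3D also lost its call with the inputs pooled (-0.24). Whether a tract goes with lower recovery among RAB genes was not tested. Across tested protein-coding genes with a window, 40.1% of 831 with a tract fell and 21.9% rose, beside 26.0% and 27.2% of 10766 without one. RAB1B and RAB8A fell without such a start. The start used in these cells was not measured, so a match only describes the annotation.

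The genes that load, switch and read RABs were recovered on both sides too. Of 127 tested, 33.9% rose and 15.7% fell per the authors' deposited table, beside 26.4% and 26.1% of tested protein-coding genes. Calls of these genes are given under the deposited scaling only, and total-count scaling adds 0.50 to each fold. Of 8 genes for escort and prenylation, 3 rose and 3 fell per the authors' deposited table. Of the subunits of the enzyme that adds the lipid anchor one rose and one fell, with RABGGTB at 1.40 (SE 0.12) and RABGGTA at -0.88 (SE 0.19) per the authors' deposited table. RABGGTB had 6791, 6428 and 7108 normalized counts in RIP against 2559, and RABGGTA 332.1, 412.8 and 421.0 against 716.7, so all RIP libraries of each lay on one side of the derived input. The escort proteins CHM and CHML rose by 0.50 and 0.48 per the authors' deposited table. GDI2, which extracts RABs from membranes, fell with -0.92 (SE 0.12) per the authors' deposited table. RABAC1, a membrane factor that frees RABs from GDI, had -2.47 (SE 0.84) there, from 0 to 32.9 in RIP.

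Of 32 tested exchange factors 15 rose and 1 fell per the authors' deposited table (median 0.34). RIN2, an exchange factor for RAB5, had 1271, 1056 and 1203 normalized counts in RIP against 398.7 and a fold of 1.56 (SE 0.22) per the authors' deposited table. RIC1, part of the exchange factor for RAB6, rose by 0.75 (SE 0.12), and SBF1 fell with -0.67 (SE 0.11) there. Of 14 TRAPP subunits, which build an exchange factor for RAB1, 5 fell and 1 rose per the authors' deposited table (median -0.27). TRAPPC1, TRAPPC2L and TRAPPC9 had -2.00 (SE 0.19), -1.27 (SE 0.20) and -0.86 (SE 0.18) per the authors' deposited table. TRAPPC1 had 717.1, 1159 and 898.4 in RIP against 3709.

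GTPase activating proteins rose in 14 and fell in 6 of 39 tested genes per the authors' deposited table (median 0.11). TBC1D20, which acts on RAB1 and RAB18, had 6082, 6927 and 7568 normalized counts in RIP against 2134 and a fold of 1.68 (SE 0.12) per the authors' deposited table. TBC1D14 and USP6NL, which act in autophagy and on RAB5, had 1.04 (SE 0.087) and 1.07 (SE 0.13) there. Among effectors 10 of 34 rose and 5 fell per the authors' deposited table (median 0.039). The smallest p-values were those of the lysosomal adaptor PLEKHM1 at 1.05 (SE 0.19), the golgin GOLGA5 at 0.76 (SE 0.15) and RABEPK at -1.04 (SE 0.21), per the authors' deposited table. No difference between these lists was tested.

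**Figure D5:**
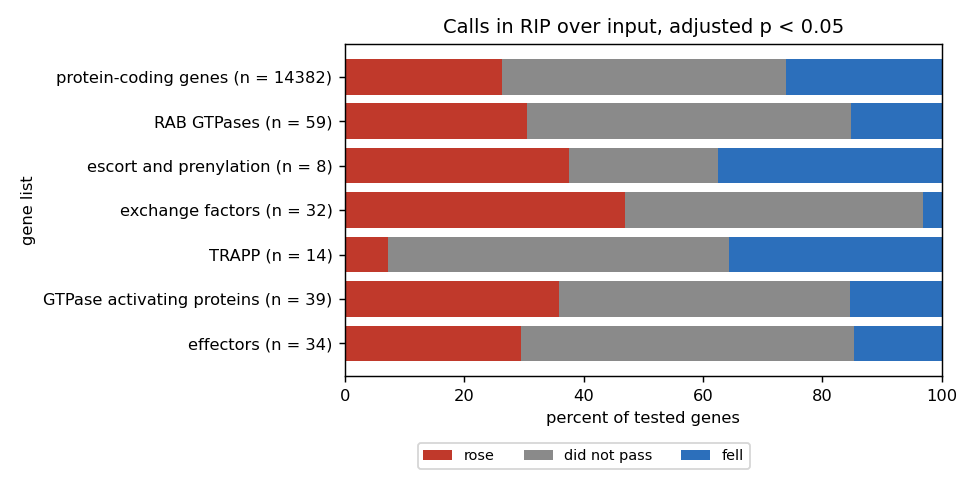
Percent of tested genes (x axis) that rose, did not pass or fell per the authors' deposited table, for all protein-coding genes, the RAB genes and 5 lists of RAB regulators (rows, with the number tested). Exchange factors have 46.9% rising and 3.12% falling, TRAPP subunits 7.14% and 35.7%, and protein-coding genes 26.4% and 26.1%.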

How the data were processed

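The authors deposited 1 table of gene counts that they had divided by 1 size factor per library (a signal), with DESeq2 results. Per the submitters' processing notes the tools were STAR, featureCounts and DESeq2 on GRCh38, without versions. The RIP values were whole multiples of what 1 read is worth, within 0.01 of a read (100% of values). The log2 fold, its SE, the Wald score, the p-value and the adjusted p-value are those of the authors' deposited table, per the file headers, and the deposited mean covers 9 libraries. The names of 3 input columns fit both kinds of input, so these columns were not used and edgeR was not run.

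The derived input mean is the RIP mean divided by the deposited fold. Paralog differences are differences of deposited log2 folds, with 95% intervals from the summed variances. Alternatives were 2 total-count scalings, mean floors of 100 and 1000, no floor, a threshold of 0.01, shrunken folds, all 6 inputs as 1 group and leaving out each RIP replicate. The last 2 rescaled the deposited SE for the number of libraries (by 0.866 and 1.12), used a pseudocount of 0.5 and a Wald test over all 20649 tested genes. For all 6 inputs the rescaled SE leaves out any difference between the compared and the remaining inputs, so calls may pass too easily. The Wald test and the Benjamini-Hochberg step were tested on folds simulated with the deposited SEs, which does not check those SEs. The scalings, the pooled inputs and the left-out replicates were not simulated. A floor of 3 reads stands for 2.24 to 2.48 normalized counts, for counting error only. The labels do not state separate cultures for the replicates, and p-values then cover only the spread between these libraries, possibly technical.

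Named genes were, for each direction, the 10 called members with the largest folds and a mean of at least 100, the members of pairs beyond the widened interval, and the 3 regulators of each list with the smallest p. Other members named were chosen after their values were seen. The members and lists were chosen with earlier results of these data known. Positions and start windows come from RefSeq (GRCh38.p14), matched by symbol for 62 and 49 members. Python 3.11.15, pandas 2.3.3 and SciPy 1.17.1 were used.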

Additional observations from a re-analysis of the deposited data

How the results depend on the processing

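The count of RAB genes that rose ranged from 14 to 27 over all alternatives, against 18, and the count that fell from 7 to 11 against 9, except for 3 under total-count scaling. The median log2 fold of the tested members was 0.74 under total-count scaling, 0.37 with small and mitochondrial RNA left out of the totals, 0.31 with all 6 inputs and 0.15 to 0.24 when each RIP replicate was left out. Total-count scaling turned 12 folds above 0: those of RAB7A (0.13), RAB11A (0.13), RAB3B (0.052), RAB2A (0.24), RAB3C (0.23), RAB40B (0.18), RAB6A (0.34), RAB12 (0.48), RAB5C (0.42), RAB31 (0.40), RAB27A (0.25) and RAB10 (0.24), by construction, since it adds 0.50 to each. RAB3C was also above 0 with all 6 inputs (0.031), and the cause was not tested. The number of paralog pairs beyond the widened interval was 8 to 11 against 9. No paired analysis was possible because the input columns carry no sample and the RIP libraries alone form 1 group, so neither the replicate block nor edgeR was run. Depth limits the 18 members with a mean below 100, and the inputs have no SD here.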
